A study of Homo sapiens with 24 samples.

Results

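The genes of 9 secreted liver proteins, TF, ALB, APOB, APOA1, SERPINA1, FGA, FGB, FGG and TTR, were followed through 12 lists of N6-methyladenosine (m6A) peak summits. Members were chosen by name, and a summit was assigned to a gene when it lay within the RefSeq span of that gene on hg38. They are 9 of 38340 protein-coding and long non-coding genes with a span, of which 12465 held at least 1 summit in at least 1 library. Together they held 477 of the 155075 summits, and each of the 9 held at least 1.

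Each list came from poly(A) RNA of HepG2, a long-established line of human liver cancer cells, that was fragmented and immunoprecipitated with an anti-m6A antibody. The 4 lines carried an integrated lentiviral cassette for METTL14 with the substitution R298P, METTL14 with the substitution D312A, wild-type METTL14 (WT) or EGFP, and all 4 were selected with puromycin. Every line was grown in the same medium, was represented by 3 biological replicates, and is 1 stable line per construct, so that line and construct cannot be told apart. The labels mention no deletion of the native METTL14 gene. The span of METTL14 held 10, 6 and 9 summits in R298P libraries, 9, 9 and 3 in D312A, 11, 9 and 7 in WT, and 1 in each EGFP library, so that the libraries of the METTL14 lines all lay above those of EGFP.

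m6A is placed on mRNA by a complex of METTL3, the catalytic subunit, and METTL14, which takes part in RNA binding, and it is recognised by reader proteins that affect the stability and translation of the transcript. Hepatocytes make most plasma proteins, and HepG2 cells have kept much of this secretory programme. Transferrin (TF) carries iron, albumin (ALB) and transthyretin (TTR) are carriers in plasma, APOB and APOA1 are the structural proteins of low- and high-density lipoproteins, SERPINA1 inhibits neutrophil elastase, and FGA, FGB and FGG are the chains of fibrinogen. Of the 5 hepatocyte markers examined, ALB, AFP, APOA1, TTR and HNF4A, 5 held summits, with 5 to 33 in a library. In D312A replicate 3 and EGFP replicate 2 the sums were 5 and 9. There ALB, AFP, APOA1 and TTR each held 0, so all of these summits were in HNF4A. ALB, APOA1 and TTR are themselves members of the set, and TTR held a single summit, in WT replicate 1. Of the fibroblast and stellate cell markers 2 of 7 held summits, with 0 to 4 in a library, and COL1A1, COL1A2, COL3A1, DCN and LUM held none. Of the blood markers 3 of 5 did (2 to 6 in a library, PTPRC and CD3E with none), of the endothelial markers 2 of 4 (0 to 1, VWF and KDR with none), and of the cholangiocyte markers 2 of 4 (2 to 3, KRT7 and EPCAM with none).

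Summits near a start of transcription allowed a stretch of sequence holding the called base to be shown for SERPINA1 and ALB. Both are read 5′ to 3′ on the sense strand from RefSeq (GRCh38.p14), with the summit base in capitals. The SERPINA1 stretch is chr14:94388553-94388581 on the minus strand and holds summits of 1 region found in 9 libraries. The ALB stretch is chr4:73404308-73404336 on the plus strand and holds summits of a region found in 6.
SERPINA1: cactgacctgggacagtgAatcgtaagta
ALB: ccccacacgcctttggcacaatgaagtgG
The letters GGAC, one of the forms of the motif known for METTL3-METTL14, stood in the SERPINA1 stretch shown and not in the ALB stretch. In all, 4 such stretches holding a summit could be read, and the letters stood in 1 of them. They were not in the stretch at the other SERPINA1 start site or in that of FGG. On the sense strand, 18.9% of 35116 RefSeq start windows held these letters in the 50 bases after the start, and 87.4% held them on either strand within 300 bases. The stretches were 29 bases each, shorter than both, so these shares are not of like length. The ALB stretch ends at its summit base, so no base after that summit was read. A match of letters describes the window and does not mark a methylated base, and a summit is the highest point of a fragment pile and not a base of known modification.

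Summed over these genes, the range of summit numbers within a line was wider than the differences between the means of the lines. Over the 9 genes, R298P libraries held 64, 7 and 13 summits, D312A libraries 73, 71 and 2, WT libraries 83, 27 and 20, and EGFP libraries 43, 2 and 72. The ranges of the 4 lines overlapped, and each line had both a library with at least 43 summits and a library with at most 20. These sums averaged 28 ± 31.3 in R298P, 48.7 ± 40.4 in D312A, 43.3 ± 34.5 in WT and 39 ± 35.2 in EGFP (SD, n = 3 each).

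**Figure D1:**
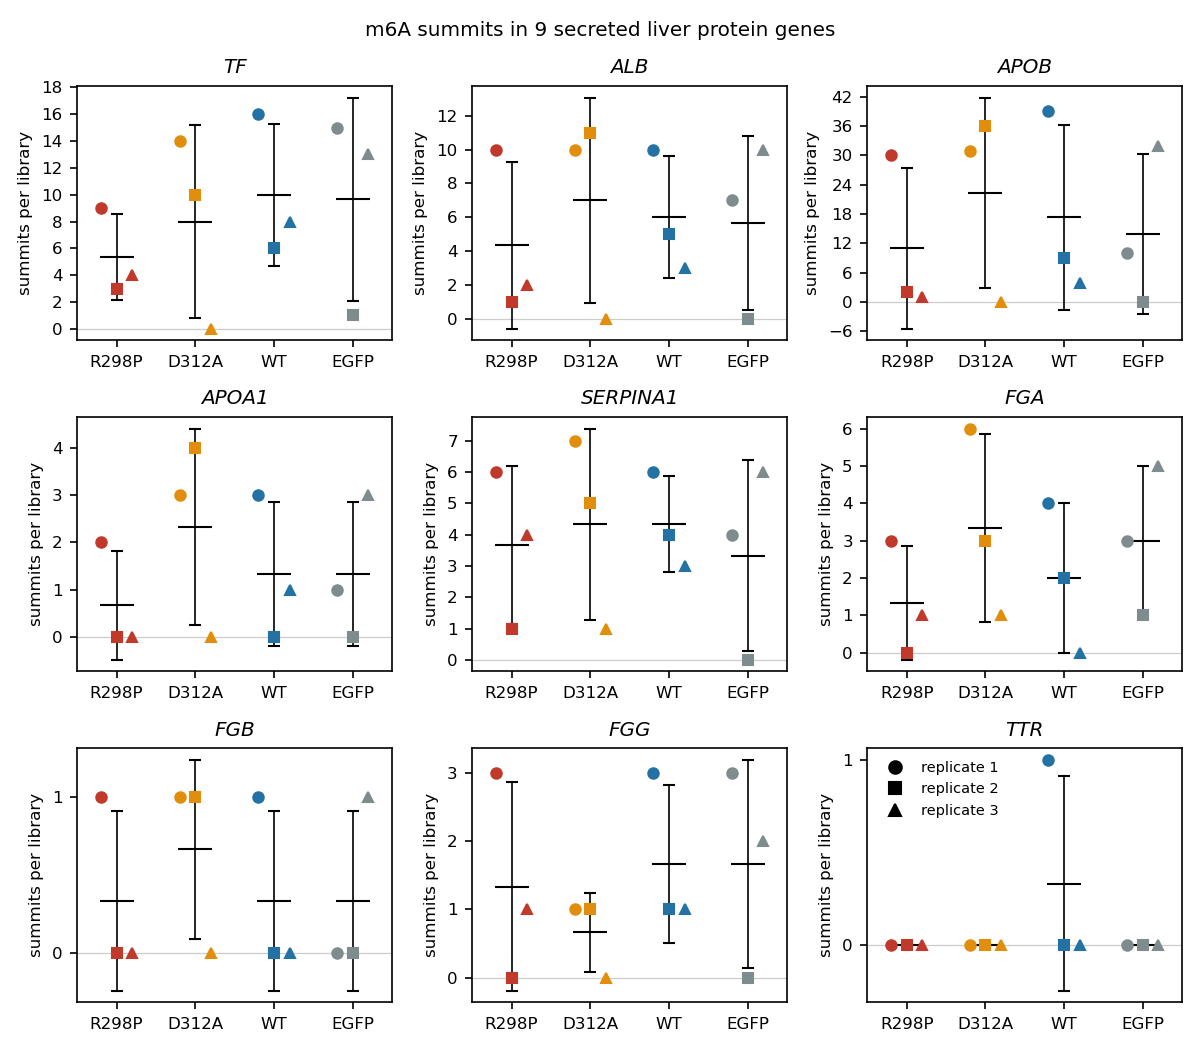
Summits per library in each of the 9 genes, for the R298P, D312A, WT and EGFP lines. Each marker is 1 library, its shape gives the replicate, and the bar and whiskers give the mean and SD of 3 libraries. The D312A replicate 3 and EGFP replicate 2 libraries lie at or near 0 in every panel, while TTR held a summit in 1 library.

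The list lengths did not follow these sums. The shortest list, of D312A replicate 2 with 8669 summits, held 71 summits in the 9 genes, whereas EGFP replicate 2 with 13859 and D312A replicate 3 with 12350 held 2 each. As a percent of the list, the 9 genes took 0.0144% in EGFP replicate 2 and 0.819% in D312A replicate 2. Summits on the mitochondrial chromosome ran beside those in the 9 genes. They numbered 31, 2 and 3 in R298P, 25, 31 and 1 in D312A, 33, 3 and 3 in WT, and 8, 0 and 16 in EGFP. The 6 libraries with the most summits in the 9 genes were also the 6 with the most mitochondrial summits. What the libraries with many summits share in their preparation or calling was not tested. The lists of replicate 1 carry another name prefix than those of replicates 2 and 3, and the sums were high in all 4 libraries of replicate 1, in D312A replicate 2 and in EGFP replicate 3.

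**Figure D2:**
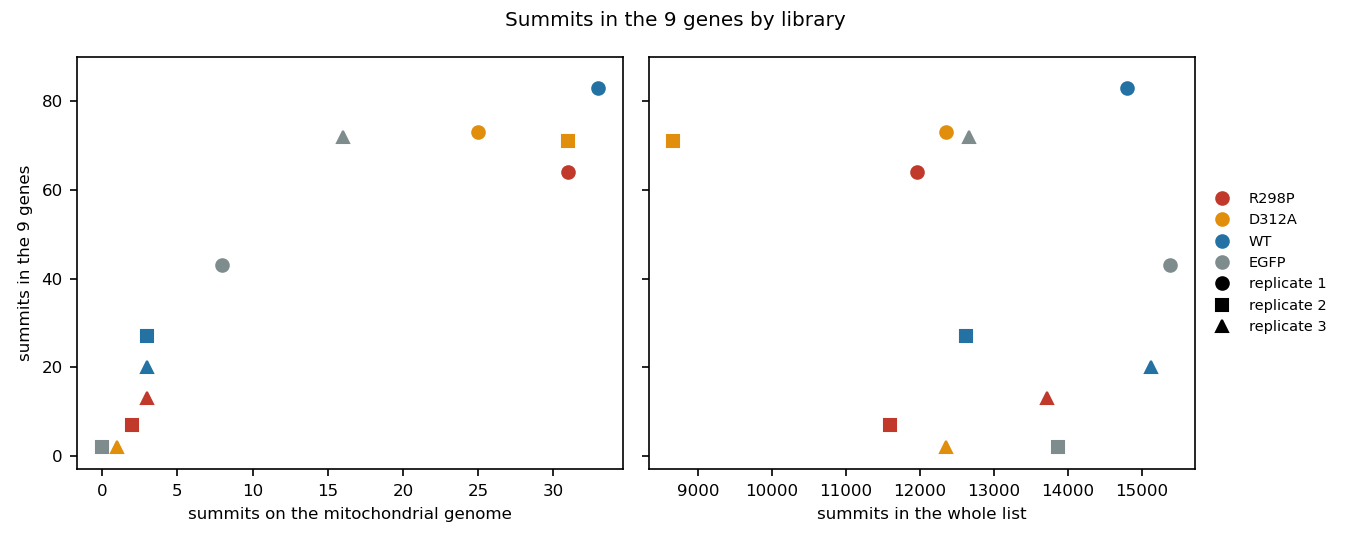
Summits in the 9 genes against summits on the mitochondrial chromosome (left) and against the length of the whole list (right), 1 point per library, with colour for the line and shape for the replicate. The libraries with at most 27 summits in the 9 genes held at most 3 mitochondrial summits, whereas D312A replicate 2 had the shortest list, 8669, and 71 summits.

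Transferrin delivers ferric iron to cells through its receptor TFRC. TF lies on chromosome 3 (133661998 to 133796641, plus strand). It held 9, 3 and 4 summits in R298P libraries, 14, 10 and 0 in D312A, 16, 6 and 8 in WT, and 15, 1 and 13 in EGFP. The R298P numbers overlapped those of WT, since the highest R298P library, with 9, lay above 2 of the 3 WT libraries. TF averaged 5.33 ± 3.21 in R298P libraries and 10.0 ± 5.29 in WT libraries (SD, n = 3 each). The difference of -4.67 summits did not pass a two-sided exact permutation test (p = 0.3, where 0.1 is the smallest p that 3 against 3 libraries can give). On the scale log2(summits + 1), fitted with limma over all genes, TF differed by -0.81 (SE 1.13, adjusted p = 0.923). With only summits of a deposited value of at least 10, the TF means were 1.33 in R298P and 5.33 in WT and the limma difference was -1.81 (adjusted p = 0.583), and with lists cut to equal length it was -1.56 (adjusted p = 0.756).

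In the other comparisons TF also fell short of the threshold. Its limma differences were -0.90 for D312A against WT (adjusted p = 0.864), -0.39 for R298P against EGFP (adjusted p = 1), -0.48 for D312A against EGFP (adjusted p = 0.984) and 0.42 for WT against EGFP (adjusted p = 1). D312A libraries averaged 8.0 ± 7.21 TF summits and EGFP libraries 9.67 ± 7.57 (SD, n = 3 each), and both lines had a library with at most 1. These comparisons share the WT or the EGFP libraries and are not independent of each other.

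By position, the 99 TF summits occupied only the later part of the span. RefSeq places start sites at 133661998 and 133746393, which are 84395 nt apart, and 0 of the 99 summits lay before the later one. The first summit stood at 133746465 and the last at 133778684, and 0 lay where TF overlaps SRPRB. Summits of all 12 lists that lay within 100 nt of a neighbour were merged into regions, and TF held 18 of them. The region at 133746465 to 133746480, 72 to 87 nt after the later start site, was present in 10 libraries, as were those at 133759262 to 133759317 and at 133764246 to 133764258. All 3 were found in 3 R298P, 2 D312A, 3 WT and 2 EGFP libraries, so they were missing only where TF had 0 or 1 summit, in D312A replicate 3 and EGFP replicate 2. Their summits stood low in the lists, with median ranks at 75.6%, 90.8% and 95.4% of the way from the best to the last summit.

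Of the 18 TF regions 8 were in 0 R298P libraries, and 2 of these 8 were in all 3 WT libraries. No share over all regions stands beside this count of 8, and some of the 8 were sparse in every line. Those at 133760604, 133762155 and 133770571 were in 1 library each. Those at 133778657 to 133778684 and 133768144 to 133768159 were in 2 and 3, and that at 133756895 to 133757003 was in 6. The region at 133761836 to 133761873 was present in 0 R298P, 1 D312A, 3 WT and 3 EGFP libraries. The neighbouring region at 133762312 to 133762325 was present in 0 R298P, 1 D312A, 3 WT and 2 EGFP libraries. These 2 regions held the best-ranked TF summits, with best ranks of 8.85% and 3.24% and median ranks of 40.4% and 9.68%. Both lie within ACSL3P1 (133761511 to 133762362), which RefSeq annotates as a pseudogene inside TF and which is named as a copy related to ACSL3, an acyl-CoA synthetase gene. The stretch held 0, 0 and 0 summits in R298P libraries, 2, 0 and 0 in D312A, 2, 2 and 2 in WT, and 3, 1 and 2 in EGFP. Every WT and EGFP library held at least 1 summit there, no R298P library did, and of the D312A libraries only replicate 1 did. The D312A replicate 2 library had 10 TF summits elsewhere and none in the stretch. D312A replicate 3 had 0 TF summits anywhere, and R298P replicates 1, 2 and 3 had 9, 3 and 4 elsewhere. Of all regions found in R298P or WT, 1.72% were in 3 WT and 0 R298P libraries. The stretch was singled out after its counts were seen.

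**Figure D3:**
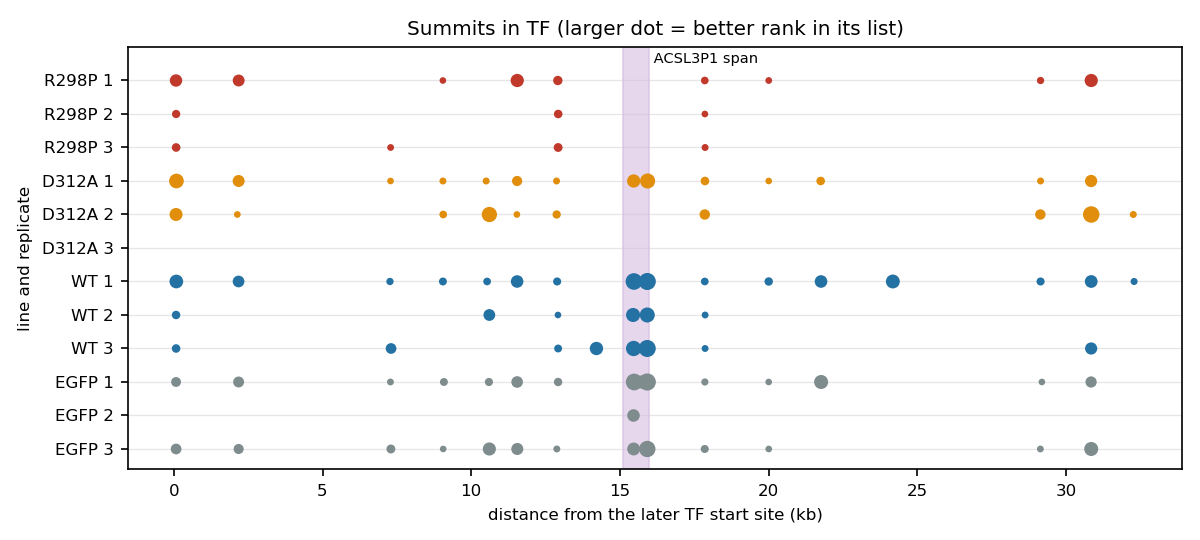
Positions of TF summits in the 12 libraries, 1 row per library, in kb from the later start site. The shaded stretch is the annotated pseudogene ACSL3P1, where no R298P library had a summit, while WT libraries had 2 each and EGFP libraries had 3, 1 and 2.

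Outside ACSL3P1, TF held 9, 3 and 4 summits in R298P, 12, 10 and 0 in D312A, 14, 4 and 6 in WT, and 12, 0 and 11 in EGFP. Without summits in any other annotated span, TF averaged 5.33 in R298P and 8.0 in WT, and the limma difference was -0.46 (adjusted p = 1). The corresponding difference against EGFP changed sign, to 0.12. The span of ACSL3 itself held 0 summits in all 12 libraries. Whether fragments of ACSL3 RNA were aligned to this stretch was not tested, and which strand the fragments came from is not in the lists.

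Among the carriers, ALB, on chromosome 4 (73404287 to 73421482, plus strand), held 10, 1 and 2 summits in R298P libraries, 10, 11 and 0 in D312A, 10, 5 and 3 in WT, and 7, 0 and 10 in EGFP. R298P and WT shared their highest value of 10, and the groups overlapped. The means were 4.33 ± 4.93 in R298P and 6.0 ± 3.61 in WT (SD, n = 3 each). The limma difference was -0.67 (SE 1.23, adjusted p = 0.985) and the exact permutation p was 0.6. ALB had 12 regions, and the most recurrent one, at 73415117 to 73415150, was present in 10 libraries (3 R298P, 2 D312A, 3 WT and 2 EGFP). The region at 73404330 to 73404339, 43 to 52 nt after the start site and shown in part in the ALB stretch, was present in 6 libraries, 1 of R298P, 2 of D312A, 1 of WT and 2 of EGFP. The best-ranked ALB region, at 73409481 to 73409485, was likewise present in 1 R298P, 2 D312A, 1 WT and 2 EGFP libraries and reached rank 15.0%. TTR, on chromosome 18 (31591877 to 31598821), held 1 summit, at 31598641 in WT replicate 1, within a span that a long non-coding RNA gene, LOC124904277, shares.

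APOB, the structural protein of very-low- and low-density lipoproteins, held the most summits of the 9 genes and the widest spread. On chromosome 2 (21001429 to 21044073, minus strand) it held 30, 2 and 1 summits in R298P libraries, 31, 36 and 0 in D312A, 39, 9 and 4 in WT, and 10, 0 and 32 in EGFP. All lines overlapped, and the 5 libraries with at least 30 summits came from all 4 lines. The means were 11.0 ± 16.5 in R298P, 22.3 ± 19.5 in D312A, 17.3 ± 18.9 in WT and 14.0 ± 16.4 in EGFP (SD, n = 3 each). The limma difference of R298P from WT was -1.14 (SE 1.84, adjusted p = 0.957) and the exact permutation p was 0.5. Without R298P replicate 1 the difference was -2.36, and it stayed short of the threshold.

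The APOB summits repeated the same positions in the libraries that had many. The 194 summits formed 47 regions, and 134 of them (69.1%) lay in the 14215 nt from 21001429 to 21015643, the part of the span next to the end of the gene on the minus strand. That part held 33 of the 47 regions. The median gap between neighbouring summits was 705 nt in R298P replicate 1, 740 nt in D312A replicate 2, 613 nt in WT replicate 1 and 470 nt in EGFP replicate 3. The most recurrent regions, at 21019732 to 21019738 and at 21037102 to 21037166, were each present in 9 libraries. APOB lost and gained no region in any of the 5 comparisons of 3 against 3 libraries.

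**Figure D4:**
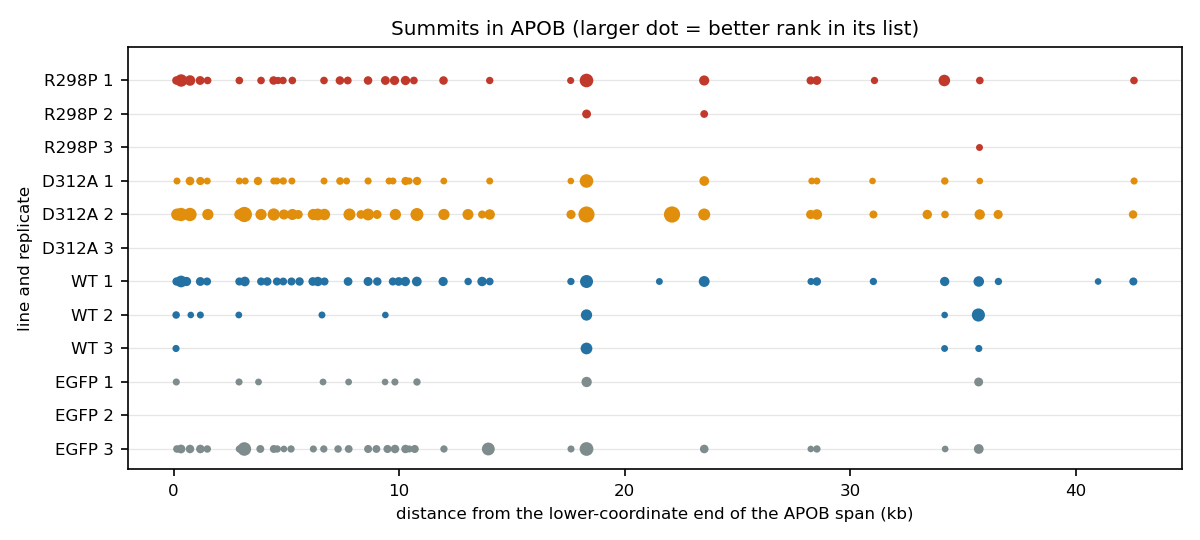
Positions of APOB summits in the 12 libraries, 1 row per library, drawn in kb from the lower-coordinate end of the span. As APOB lies on the minus strand, that end is the end of the gene, and transcription runs from right to left. The libraries with 30 or more summits, R298P replicate 1, D312A replicates 1 and 2, WT replicate 1 and EGFP replicate 3, share positions near the end of the gene, and D312A replicate 3 and EGFP replicate 2 are empty.

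APOA1, the main protein of high-density lipoprotein, lies on chromosome 11 (116835751 to 116837622) and overlaps APOA1-AS. It held 2, 0 and 0 summits in R298P libraries, 3, 4 and 0 in D312A, 3, 0 and 1 in WT, and 1, 0 and 3 in EGFP. The lists carry no strand, so summits of APOA1 and of its antisense partner cannot be told apart.

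SERPINA1, on chromosome 14 (94376747 to 94390635, minus strand), encodes alpha-1 antitrypsin and held a summit in 11 of the 12 libraries. It held 6, 1 and 4 summits in R298P libraries, 7, 5 and 1 in D312A, 6, 4 and 3 in WT, and 4, 0 and 6 in EGFP. Only EGFP replicate 2 had none, and the lines overlapped. The means were 3.67 ± 2.52 in R298P and 4.33 ± 1.53 in WT (SD, n = 3 each), with a limma difference of -0.33 (SE 0.821, adjusted p = 1) and an exact permutation p of 1. Its region at 94380884 to 94380964 was the most recurrent of all regions in the 9 genes, present in 11 libraries (3 R298P, 3 D312A, 3 WT and 2 EGFP). The region at 94388562 to 94388563, whose summit base is the capital in the SERPINA1 stretch, lay 39 to 40 nt after a start site at 94388602 and was present in 9 libraries, 2 of R298P, 2 of D312A, 3 of WT and 2 of EGFP. A region at 94379466 to 94379521 was also present in 9.

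The fibrinogen chains lie side by side on chromosome 4 and held few summits. FGA (154583126 to 154590742) held 3, 0 and 1 in R298P libraries, 6, 3 and 1 in D312A, 4, 2 and 0 in WT, and 3, 1 and 5 in EGFP. FGG (154604136 to 154612656) held 3, 0 and 1 in R298P, 1, 1 and 0 in D312A, 3, 1 and 1 in WT, and 3, 0 and 2 in EGFP. FGB (154562980 to 154572807) held 1, 0 and 0 in R298P, 1, 1 and 0 in D312A, 1, 0 and 0 in WT, and 0, 0 and 1 in EGFP. The lines overlapped for each chain. FGA averaged 1.33 ± 1.53 in R298P and 2.0 ± 2.0 in WT (SD, n = 3 each), with a limma difference of -0.30 (SE 0.769, adjusted p = 1) and an exact permutation p of 0.8. One FGG region, at 154604899 to 154604916, was present in 9 libraries, although FGG had at most 3 summits in any. The region of FGA nearest its start site, at 154590635 to 154590637 and 105 to 107 nt after it, was present in 4, and the 5 summits of FGB fell within 1 region at 154570542 to 154570570.

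Across the set, 7 of the 9 genes reached the mean of 1 summit per library that the limma fit required, and FGB and TTR did not. In R298P against WT, 0 of these 7 passed an adjusted p of 0.05, beside 0.0382% of 5232 genes called higher and 0% called lower. At an unadjusted p under 0.05, 0 of 7 passed, beside 7.07% of all genes tested. The 7 differences ranged from -1.14 to -0.30 with a median of -0.47, beside a median of -0.09 over all genes tested. That member median was -1.0 without R298P replicate 1 and -0.12 without WT replicate 1, the ends of its range over 15 fits with libraries left out. Within replicates 2 and 3 alone, which share a name prefix, the differences of R298P from WT were -0.83 for TF, -1.0 for ALB, -1.53 for APOB, -0.5 for SERPINA1 and -0.29 for FGA, none past the threshold, and replicate 1 alone leaves 1 library a line and no test. In the other 4 comparisons 0 of 7 passed as well, at either threshold. The shares of all genes called higher and lower were 0% and 0.0765% in D312A against WT, 0.0765% and 0.0765% in R298P against EGFP, 0% and 0.115% in D312A against EGFP, and 0.0191% and 0% in WT against EGFP. The unadjusted shares were 7.65%, 7.49%, 7.47% and 3.04% in the same order. The member medians were -0.25, -0.32, 0.19 and 0.42, beside -0.19, -0.06, -0.19 and 0 over all genes tested. None of these 4 medians kept its sign when libraries were left out. In D312A against WT it ran from -1.0 (without replicate 2 of every line) to 0.84 (without D312A replicate 3), and in R298P against EGFP from -1.21 (without EGFP replicate 2) to 0.29 (without replicate 3 of every line). In D312A against EGFP it ran from -1.29 (without replicate 2 of every line) to 1.63 (without replicate 3 of every line), and in WT against EGFP from -0.55 (without EGFP replicate 2) to 0.95 (without EGFP replicate 1). The lowest adjusted p of any member was 0.923, 0.790, 0.832, 0.851 and 1 in the 5 comparisons. For 0 of the 9 genes were the summit numbers of R298P and WT free of overlap, beside 5.06% of all genes tested, and the same held in the other 4 comparisons, beside 4.55%, 5.03%, 4.03% and 1.8%.

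By region, the 9 genes held 104. Of these 17.3% were seen in 1 library only, beside 35.8% of all 34313 regions, and 35.6% were seen in 6 or more libraries, beside 33.2%. At the upper end, 9.62% were seen in 9 or more libraries, beside 21.8%, and 0 in all 12, where 3401 regions of the whole series were. In R298P against WT, 0 of 95 member regions were gained, beside 0.711% of all regions, and 2 were lost, both in TF, beside 1.72%. In R298P against EGFP, 0 of 81 were gained and 1 was lost, the first of the same 2, beside 0.787% and 1.56%. In the comparisons of D312A with WT, D312A with EGFP and WT with EGFP none was gained or lost, beside 0.116% and 1.32%, 0.168% and 1.17%, and 0.408% and 0.255%. Without R298P replicate 1 the lost regions against WT numbered 6, adding 2 in APOB and 2 in ALB, and without WT replicate 3 they numbered 4. Against EGFP the lost regions numbered 4 without EGFP replicate 2. Without D312A replicate 3, 2 regions were gained in D312A against WT and 2 against EGFP, and without D312A replicate 1, 2 were lost against WT and 1 against EGFP. In WT against EGFP, 1 was lost without EGFP replicate 2 and 1 was gained without EGFP replicate 3. No shares over all regions stand beside these counts with libraries left out, where the rule is easier to meet. They therefore do not show a change particular to these genes.

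The spread between replicates was larger than in the median gene in each of the 5 members with a mean of at least 2 summits. APOA1, FGB, FGG and TTR had lower means and were not compared. The within-line variance of the summit number divided by its mean was 19.8 for APOB, 4.47 for TF, 4.38 for ALB, 1.74 for SERPINA1 and 1.72 for FGA. The median over the 2291 genes with a mean of at least 2 summits was 0.254. None of those genes lay above APOB, 11 lay above TF, 12 above ALB, 39 above SERPINA1 and 41 above FGA. The next after APOB was FN1, which encodes fibronectin, at 19.0, followed by EEF2, a translation elongation factor of the cytoplasm that is not secreted, at 9.63 and C3, complement component 3, at 8.49. The rest of the 10 highest were KLRG1 (6.59), PEG10 (6.54), A2M (6.36), P4HB (5.68), and INS-IGF2 and IGF2 (4.67 each). A summit lying in overlapping spans was counted for each gene, so these genes need not hold separate summits. INS-IGF2 and IGF2 had the same mean, 4.08, as well as the same ratio. KLRG1 and A2M had means of 7.67 and 7.58, and whether they shared summits was not checked. PEG10 and P4HB are no plasma proteins. A2M, like FN1 and C3, is among the 30 other secreted liver proteins set beside the 9 genes below.

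**Figure D5:**
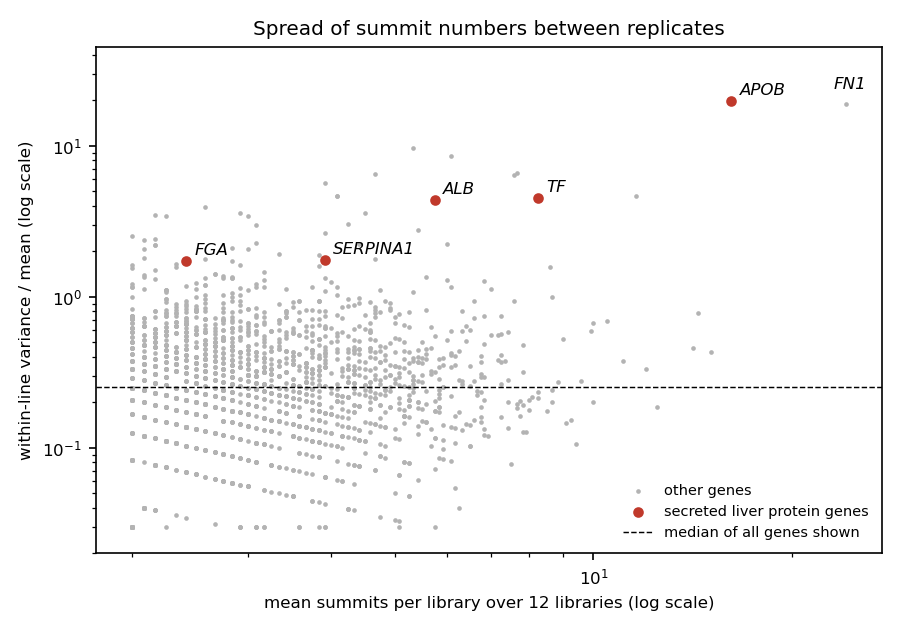
Within-line variance of the summit number divided by its mean, against the mean number of summits per library over 12 libraries, for 2291 genes, both axes on log scales. Genes without variance are drawn as the lowest row of points, and the dashed line is the median of 0.254. The 5 labelled secreted liver protein genes lie above the median, with APOB at 19.8 and FN1 at 19.0.

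The genes whose log2(summits + 1) followed TF most closely over the 12 libraries were AMBP (Pearson r = 0.945), ALB (r = 0.939) and FN1 (r = 0.935), out of 1029 other genes with a mean of at least 3 summits. These are descriptions over libraries that share their preparation and their spread. AMBP, the precursor of alpha-1-microglobulin and bikunin, held 5, 3 and 2 summits in R298P libraries, 6, 5 and 0 in D312A, 8, 4 and 3 in WT, and 6, 0 and 4 in EGFP. FN1 held 46, 10 and 13 in R298P, 45, 44 and 0 in D312A, 43, 11 and 9 in WT, and 31, 0 and 38 in EGFP. Both were near or at 0 in D312A replicate 3 and EGFP replicate 2, as TF was.

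Other gene lists were set beside the 9. Of 30 other secreted liver proteins, among them AMBP and FN1, 23 held summits and 15 were tested, and 0 passed in R298P against WT, with a median difference of 0.06. Their sums were 124, 27 and 30 in R298P libraries, 112, 127 and 8 in D312A, 128, 33 and 28 in WT, and 96, 9 and 114 in EGFP, with the same libraries low as for the 9 genes. Of 11 genes of iron handling 8 held summits, 5 were tested and 0 passed, and the list held 4 to 12 summits in a library. Of 11 genes of lipoprotein assembly and export 10 held summits, 4 were tested and 0 passed, with 4 to 23 summits in a library and a median of -0.46. Beside these counts, 0.0382% of all genes tested were called higher and 0% lower in R298P against WT.

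The coagulation factors, which the liver also secretes, did not show that range. Of 11 genes 8 held summits, 6 were tested and 0 passed in R298P against WT, with a median of -0.33. The sums were 17, 15 and 18 in R298P libraries, 17, 14 and 18 in D312A, 21, 22 and 22 in WT, and 17, 19 and 21 in EGFP. They lay between 14 and 22 in all 12 libraries, including D312A replicate 3 and EGFP replicate 2. F11, the zymogen of coagulation factor XIa, had a region on chromosome 4 (186288581 to 186288607) that was gained in R298P against WT. It was present in 3 R298P, 2 D312A, 0 WT and 2 EGFP libraries, and the summit number of F11 did not pass the test (adjusted p = 0.985). Of all regions found in R298P or WT, 0.711% were gained in this way, and F11 was named because its region was.

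Within the lists, the summits of the 9 genes carried low values. Their median rank lay between 68.9% of the list in D312A replicate 2 and 97.2% in WT replicate 2, counted from the best summit. In D312A replicate 1, 26 of the 73 summits in these genes carried the same value of 5.38097, which 78 summits of that list shared. In WT replicate 1, 15 of 83 carried the value 7.22417, which 60 summits shared. Shared values also stood in other lists: 11 of the 64 summits in R298P replicate 1 carried 6.24499, which 50 summits shared, 7 of 71 in D312A replicate 2 carried 10.8581, which 16 shared, and 10 of 72 in EGFP replicate 3 carried 6.43025, which 24 shared.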

How the data were processed

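Per the labels, poly(A) RNA of 4 HepG2 lines with 3 biological replicates each was immunoprecipitated with an anti-m6A antibody, which gave the 12 libraries used; the 12 input libraries were not analysed here. The authors deposited 1 summit list per library, of 8669 to 15373 summits, whose values were read from their range as −log10 p or q values. The choice of p or q, the matched input, the threshold and the read depth were not given in the sources used here. Without depth, no counting interval was possible. Per the submitters' processing notes, the tools included STAR 2.7.9a and MACS2 2.1.2, with the build hg38.

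Groups came from the sample titles. Positions are 1-based. Summits were counted per RefSeq gene span (GRCh38.p14), and genes with a mean of at least 1 summit were tested with limma 3.58.1 (R 4.3.3; lmFit and eBayes with trend) on log2(summits + 1), with all 12 libraries in 1 fit and Benjamini-Hochberg adjustment over 5232 genes. Such differences understate changes of genes with few summits. Exact permutation tests over 20 assignments were added for members with a mean of at least 2. A region was gained or lost when present in 3 of 3 libraries of one line and 0 of 3 of the other. The fit was tested on simulated data, drawn as independent Poisson counts, whose variance equals their mean. The variance over the mean of TF, ALB and APOB was higher, so the simulation does not show how the fit behaves for them. Members, lists and tests were chosen with earlier results of these data known. Named beside the 9 members were the 3 genes most correlated with TF and the list genes with a called difference or a gained or lost region in R298P against WT. FN1, EEF2, C3, KLRG1, PEG10, A2M, P4HB, INS-IGF2 and IGF2 in the account of the spread were named after their values were seen. The TF, APOB and other positions singled out were also chosen after their values were seen.

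The authors' deposited expression table was not used. Its Ensembl identifiers could not be paired with gene symbols through the tables used here, and its 18 per-library columns are headed by codes found in no sample's labels. The planned comparison of abundance was therefore not run. Exons, introns and UTRs could not be assigned without an exon annotation.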

Additional observations from a re-analysis of the deposited data

How the results depend on the processing

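Of 213 values of 9 summit-number differences under 24 other settings, 196 kept their direction, 17 reversed and 0 passed the threshold. Apart from libraries left out, 2 reversed: TF in R298P against EGFP was 0.12 without summits in any other annotated span, and TF in D312A against EGFP was 0.046 with lists of equal length. With 1 replicate number or 1 library left out, the R298P against WT differences ran from -1.19 to -0.44 for TF, -1.39 to -0.16 for ALB, -2.36 to -0.31 for APOB, -0.72 to 0.19 for SERPINA1 and -0.95 to 0.34 for FGA. For TF they ran from -1.68 to 0.33 in D312A against WT, -1.36 to 0.16 in R298P against EGFP, -1.95 to 1.18 in D312A against EGFP and -0.55 to 0.95 in WT against EGFP. Members called stayed at 0 throughout. Gained regions ranged over 0 to 0 in R298P against WT, 0 to 2 in D312A against WT, 0 to 1 in R298P against EGFP, 0 to 25 in D312A against EGFP and 0 to 4 in WT against EGFP, and lost regions over 2 to 6, 0 to 2, 1 to 4, 0 to 1 and 0 to 3. The 25 came without replicate 3 in both lines. Fewer libraries per line make such regions easier to reach, and no shares over all regions stand beside these ranges. Pairing by replicate number was not taken as shown, since 11 of 18 pairs of the same number, not all, correlated above 0.1 (r from -0.17 to 0.345). All 6 pairs of replicate 1 did (0.122 to 0.345), so those libraries deviated together. With the replicate block TF in R298P against WT was -0.81 (adjusted p = 0.873) with 0 members called. FGA was not tested with values of at least 10, equal lengths or a mean of at least 3. The alternatives on the expression table were not run. The settings without other annotated spans and without single libraries were chosen after seeing the data. Depth is unknown, so an absent summit does not show an unmethylated transcript.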
